A study of Mus musculus with 12 samples.

Results

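The lysyl oxidase family of the mouse has 5 genes, Lox, Loxl1, Loxl2, Loxl3 and Loxl4, and all 5 were found by their gene symbol among the 21954 genes of the deposited expression table. Their expression was followed in RNA from the ascending aorta of 6 mice at 2 months of age. The aorta of each mouse was divided into a proximal piece, next to the root, and a distal piece, which gave 12 libraries. The groups were wildtype distal, wildtype proximal, Notch1.129S6+/- distal and Notch1.129S6+/- proximal, with 3 libraries each and 1 library per mouse in each group. The labels give Notch1.129S6+/- as the strain of the heterozygous mice, with no further allele and no agent in any group. The study asked about aortic aneurysm in Notch1 haploinsufficient mice, and the question that location and genotype address for this family is whether its transcript levels differed along the ascending aorta or between genotypes.

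Lysyl oxidases are secreted, copper-dependent amine oxidases. They oxidise lysine side chains of tropoelastin and collagen, and the aldehydes that result form the covalent crosslinks that give elastic and collagen fibres their strength. In the aortic wall, smooth muscle cells and fibroblasts are the main sources, and loss of Lox in mice causes aortic aneurysm and death around birth. Lox and Loxl1 are made with a propeptide that is cut off outside the cell. Loxl2, Loxl3 and Loxl4 carry scavenger receptor domains in place of that propeptide.

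All members share a catalytic part at the end of the protein that binds copper through histidines. The coding sequences around those histidines are shown for 4 members because they carry the feature that the family shares and show how far its members differ. Lox holds 1 match to the same motif, and its sequence is not shown here. Each stretch of 54 bases was read from the GENCODE transcripts of the mm10 build and is written on the coding strand from 5′ to 3′, with 5 histidine codons in capitals. The capitals mark every histidine codon of the stretch and do not show which of them bind copper. The stretches lie at chr9:58293708-58294390 on the minus strand for Loxl1, at chr14:69682307-69689049 on the plus strand for Loxl2, at chr6:83049986-83050137 on the plus strand for Loxl3 and at chr19:42598795-42599908 on the minus strand for Loxl4. Each spans a junction between 2 coding exons, so that an intron lies within those coordinates.
Loxl1: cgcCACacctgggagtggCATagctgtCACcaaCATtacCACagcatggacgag
Loxl2: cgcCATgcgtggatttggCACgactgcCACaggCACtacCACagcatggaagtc
Loxl3: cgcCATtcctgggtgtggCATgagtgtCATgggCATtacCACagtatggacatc
Loxl4: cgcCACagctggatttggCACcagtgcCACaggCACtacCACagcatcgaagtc
Over this stretch, Loxl2 and Loxl4 differed at 7 of 54 bases, Loxl2 and Loxl3 at 13, and Loxl1 and Loxl2 at 17. Over the last 200 residues of the longest reading frames, Lox and Loxl1 were identical at 75.0% of aligned residues. Loxl2, Loxl3 and Loxl4 were identical to each other at 66.5% to 70.2%, and the 2 sub-groups to each other at 50.6% to 57.3%. No stretch of 50 bases, the length of a read, was shared between the transcripts of any of the 10 pairs of members.

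Per the file's coordinates on mm10, Lox (ENSMUSG00000024529) lies on chromosome 18 from 52516069 to 52529867, Loxl1 (ENSMUSG00000032334) on chromosome 9 from 58287723 to 58313212, and Loxl2 (ENSMUSG00000034205) on chromosome 14 from 69609068 to 69695834. Loxl3 (ENSMUSG00000000693) lies on chromosome 6 from 83034173 to 83052562 and Loxl4 (ENSMUSG00000025185) on chromosome 19 from 42593982 to 42612813. The cDNA kit did not mark the strand of the RNA. Of the exon bases of Loxl3, 11.6% overlapped exons of Htra2 on the other strand, and of those of Lox, 0.628% overlapped AC161119.1. Loxl2 overlapped Gm27177 and Mir6950, with 5.57% of its exon bases covered on the other strand and 0.13% on its own. Reads from these stretches cannot be assigned to 1 of the overlapping genes.

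Total reads per library were 26518332 to 36742096, and mitochondrially encoded genes held 24.1% to 43.7% of all RPKM. Notch1 was higher in each library labelled Notch1+/- than in each wildtype library of the same location. Such a separation was found in proximal tissue for 7.78% of all genes, and the share in distal tissue is not given here. The deposited values are per gene and do not tell reads of the 2 alleles apart, so the label was not tested. In distal tissue Notch1 stood at 1.52 ± 0.335 RPKM against 0.877 ± 0.303 in wildtype, and in proximal tissue at 1.83 ± 0.320 against 1.29 ± 0.239 (SD, n = 3 each). Neither difference was called, with a limma adjusted p of 1 and 0.999. RPKM, the unit of these values, counts reads per length of gene and per library size. Genotype names below are those of the labels. The smooth muscle markers Acta2, Myh11, Tagln, Cnn1, Smtn and Myocd were all present, at a sum of 2813 to 5105 RPKM per library. Wildtype mouse 1 had the lowest Lox and the lowest Loxl1 of its group in both tissues, and results are therefore also given without its 2 libraries.

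The family was led by Lox, followed by Loxl1, with Loxl2 and Loxl3 at similar levels and Loxl4 close to the limit of quantification. Lox was the highest member in 12 of 12 libraries and Loxl4 the lowest in 12 of 12. The ratio of Lox to Loxl1 had a geometric mean of 2.34 and ran from 1.502 to 4.23. Loxl1 exceeded Loxl2 in 10 of 12 libraries, with a geometric mean ratio of 1.498. Loxl2 and Loxl3 could not be ordered, since Loxl2 was the higher in 6 of 12 libraries and the mean log2 ratio of 0.07 was small beside its SD of 0.69. Loxl3 exceeded Loxl4 by a geometric mean of 12.3-fold, and in all 12 libraries.

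**Figure D1:**
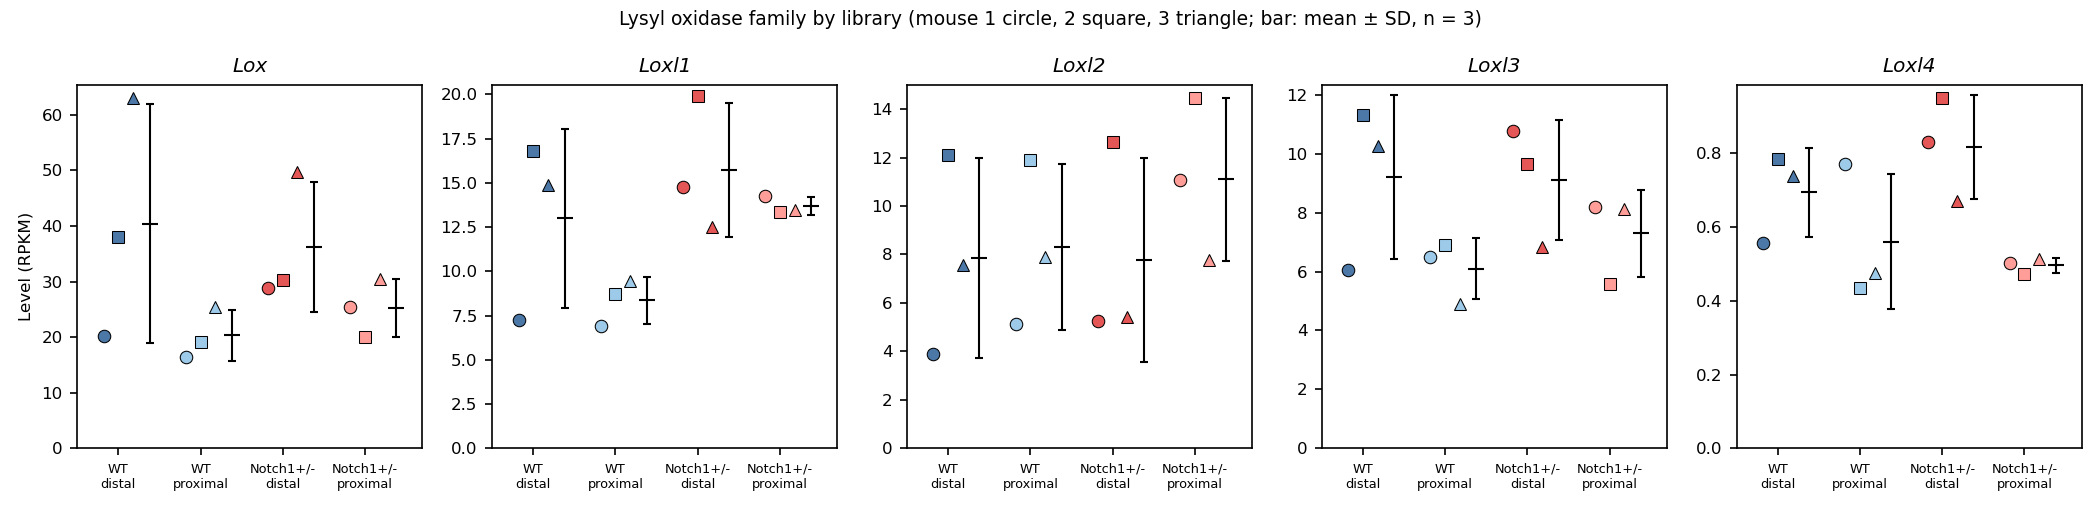
Level of each lysyl oxidase gene in RPKM on a linear axis, by group. Points are libraries, with circle, square and triangle for mice 1, 2 and 3 of a genotype, and bars are the mean ± SD of 3 libraries. In Loxl1 the 3 proximal libraries labelled Notch1+/-, at 13.3 to 14.3, sit above the 3 wildtype proximal libraries, at 6.88 to 9.46.

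Lox, which encodes the founding enzyme of the family, stood at 20.2, 38.03 and 63.1 RPKM in the distal libraries of wildtype mice 1, 2 and 3 and at 16.5, 19.1 and 25.4 in their proximal libraries. In mice 1, 2 and 3 labelled Notch1+/- it stood at 28.8, 30.2 and 49.7 RPKM distally and at 25.4, 20.0 and 30.4 proximally. The proximal library was the lower of the pair in every mouse, while the ranges of the 2 locations overlapped. Group means were 40.4 ± 21.6 distal and 20.3 ± 4.58 proximal in wildtype, and 36.2 ± 11.7 and 25.3 ± 5.20 in the libraries labelled Notch1+/- (SD, n = 3 each). Over both genotypes the distal mean was 1.68 times the proximal mean, at 38.3 ± 15.7 against 22.8 ± 5.16 RPKM (SD, n = 6 each). The fitted log2 change, proximal minus distal on log2(RPKM + 0.5), was -0.67 with an SE of 0.25 and a 95% interval of -1.22 to -0.12. Its limma p was 0.0210 unadjusted and 0.308 after Benjamini-Hochberg adjustment over 17297 genes, so the difference did not pass. An exact two-sided test that flips the sign of the 6 within-mouse differences gave p = 0.03125, the smallest that 6 mice allow. Among all genes tested, 5.65% were lower in the proximal piece of all 6 mice. Without both libraries of wildtype mouse 1, the log2 change of Lox was -0.81 (limma adjusted p 0.153).

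Loxl1, whose product acts on elastin and is known for elastic fibre renewal in adult mice, stood at 7.26, 16.8 and 14.9 RPKM in the 3 wildtype distal libraries and at 6.88, 8.74 and 9.46 in the proximal ones. In the libraries labelled Notch1+/- it stood at 14.7, 19.9 and 12.5 RPKM distally and at 14.3, 13.3 and 13.5 proximally. The proximal values were lower in 5 of 6 mice, and mouse 3 labelled Notch1+/- was the exception. The log2 change between locations was -0.35 (SE 0.20, limma adjusted p 0.577), with an exact sign-flip p of 0.125 over the 6 mice. Lower values in the proximal piece of at least 5 of 6 mice were found for 19.7% of all genes.

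Loxl2, an enzyme known for crosslinking type IV collagen of basement membranes, was the member fitted higher in proximal tissue. Its values were 3.89, 12.1 and 7.57 RPKM distally and 5.11, 11.9 and 7.90 proximally in wildtype mice. In the libraries labelled Notch1+/- they were 5.26, 12.6 and 5.40 distally and 11.1, 14.5 and 7.76 proximally. Mouse 2 of each genotype had the highest Loxl2 in both pieces, and the proximal piece was the higher in 5 of 6 mice. The share of all genes higher in at least 5 of 6 mice was not counted, while 19.7% were lower in at least 5 of 6. For Loxl2 the log2 change was 0.35 (SE 0.31, limma adjusted p 0.774), with a 95% interval of -0.32 to 1.01 and an exact sign-flip p of 0.0625 over 6 mice. Leaving out 1 library at a time moved it between 0.15 and 0.54.

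Loxl3, which in mice is needed for the palate and the spine, stood at 6.06, 11.3 and 10.3 RPKM in wildtype distal and at 6.48, 6.89 and 4.91 in wildtype proximal libraries. In the libraries labelled Notch1+/- it stood at 10.8, 9.67 and 6.84 distally and at 8.18, 5.58 and 8.13 proximally. It was lower in the proximal piece of 4 of 6 mice. The log2 change was -0.41 (SE 0.19), with a limma p of 0.0470 unadjusted and 0.436 adjusted, and the exact sign-flip p over 6 mice was 0.125.

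Loxl4 rested on 32 to 65 reads per library, against 1404 to 5266 for Lox. It did not reach 1 RPKM in any library, so it was the 1 member that did not enter the test of 17297 genes, and its fitted values come from a fit with no filter on low values. Its values were 0.557, 0.786 and 0.739 RPKM in wildtype distal, 0.771, 0.435 and 0.475 in wildtype proximal, 0.830, 0.951 and 0.671 in distal libraries labelled Notch1+/- and 0.502, 0.472 and 0.514 in proximal ones. All 3 proximal libraries labelled Notch1+/- lay below the 3 distal ones, as was the case in this direction for 5.53% of the 17297 genes tested. These proximal libraries held 33, 34 and 40 reads of Loxl4 and the distal ones 65, 65 and 49, as worked back from RPKM. The file headers set the limit for reliable quantification at 50 reads per gene, given as 0.680 to 0.943 RPKM over the libraries. Read counts here rest on fewer reads per library than the total, so the limit was compared in RPKM. The proximal values of 0.472 to 0.514 RPKM lay under that range, and the distal ones of 0.671 to 0.951 in or near it. The separation thus lies largely under or near the limit. The exact two-sided permutation test gave p = 0.1 for these groups of 3, the smallest it allows, and the log2 change of -0.40 (SE 0.23) had a limma adjusted p of 0.808. The authors' deposited table gave a Tukey p-value of 0.00947 and a false discovery rate of 0.504 for this comparison.

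**Figure D2:**
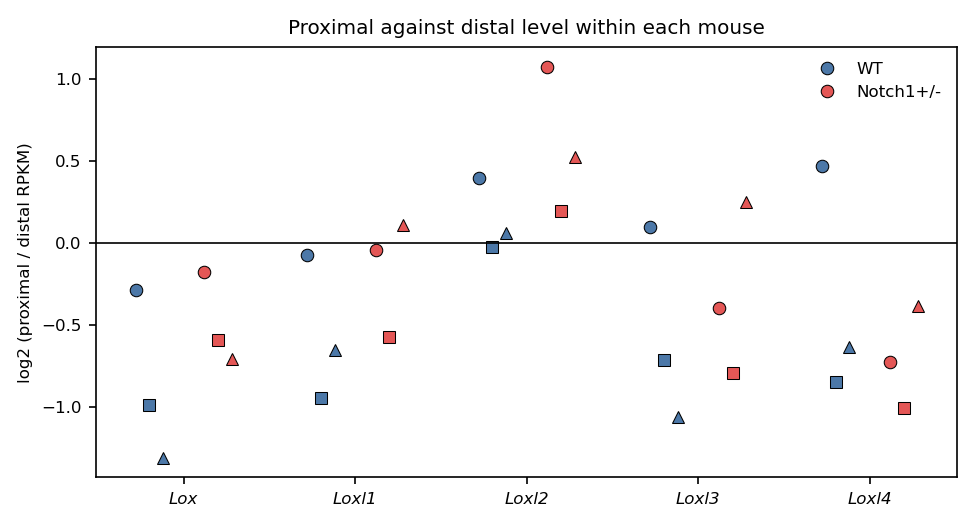
Log2 ratio of the proximal to the distal RPKM of the same mouse, for each lysyl oxidase gene. Blue points are wildtype mice and red points mice labelled Notch1+/-, with circle, square and triangle for mice 1, 2 and 3, and the line at 0 marks equal levels. All 6 points of Lox lie below the line and 5 of 6 points of Loxl2 lie above it.

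By the test across all genes, 0 of the 4 members tested were called between locations, at a Benjamini-Hochberg adjusted p under 0.05 in limma, within either genotype or averaged over both. At an unadjusted p under 0.05, 2 of the 4 passed when averaged over genotypes, Lox and Loxl3, and Lox alone in wildtype. Over all genes, 0.237% were called between locations in wildtype, 0.254% under the Notch1+/- label and 1.5% when averaged. An unadjusted p under 0.05 was found for 8.26%, 7.17% and 11.1% of all genes in the same order. The median log2 change of the 4 members was -0.38, against -0.05 over all genes tested. In wildtype alone the log2 change of Lox was -0.85 (SE 0.36, limma adjusted p 0.558), and in the libraries labelled Notch1+/- it was -0.49 (SE 0.36, limma adjusted p 0.886). With 1 library left out at a time, the first ran from -1.27 to -0.46 and the second from -0.63 to -0.24. The interaction of location and genotype, which tests whether these 2 differ, was 0.37 (SE 0.51, limma adjusted p 0.9996) for Lox. In bulk tissue, fewer cells of a type and less RNA per cell cannot be told apart.

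The make-up of the family differed between the 2 pieces of each mouse. Of the RPKM summed over the 5 genes, Lox took 37.2% to 66.2%, Loxl1 15.4% to 27.1%, Loxl2 7.19% to 26.8%, Loxl3 9.11% to 18.1% and Loxl4 0.765% to 2.16%. The share of Lox was lower in the proximal piece of 6 of 6 mice, by 8.62 ± 4.58 percentage points (SD, n = 6), while that of Loxl2 was higher in 6 of 6 mice, by 7.97 ± 2.51 percentage points. Loxl1 and Loxl3 each gained share in 3 mice and lost it in 3. Shares of 1 sum are not independent of each other, and 38.3% of all genes were higher relative to Lox in the proximal piece of all 6 mice, while 26.6% were lower relative to Loxl2.

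**Figure D3:**
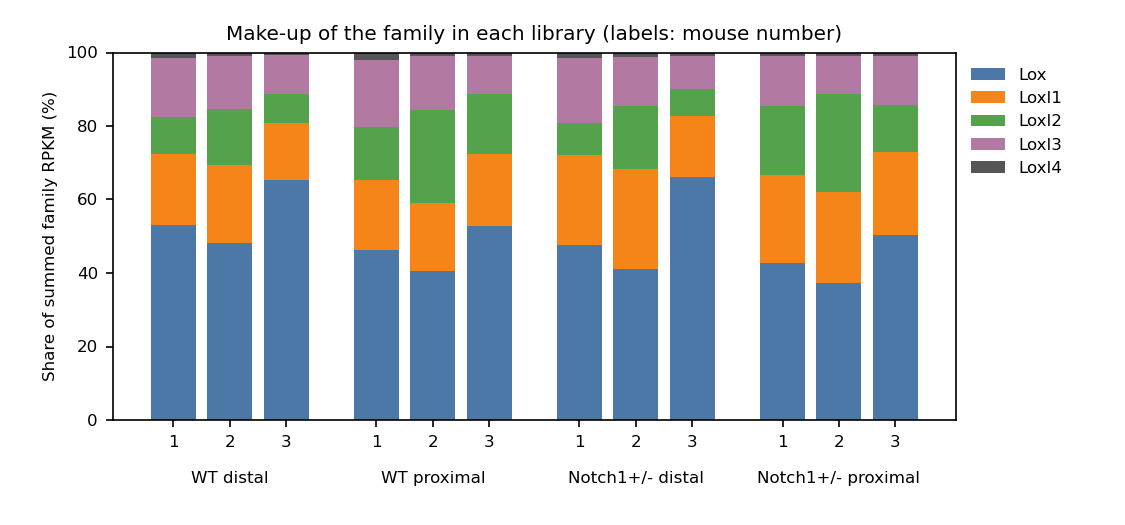
Share of each member in the summed RPKM of the 5 lysyl oxidase genes, in percent, in each of the 12 libraries. Bars are libraries, labelled by the mouse number within its genotype. The Lox share ran from 37.2% to 66.2% and was smaller in the proximal than in the distal bar of every mouse.

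Between genotypes, Loxl1 in proximal tissue was the member whose groups did not overlap. It stood at 13.7 ± 0.507 RPKM in the libraries labelled Notch1+/- and at 8.36 ± 1.33 in wildtype, a ratio of 1.64 (SD, n = 3 each). Libraries labelled Notch1+/- lay above wildtype without overlap for 7.78% of all genes in proximal tissue. The log2 change of 0.69 (SE 0.28) had a 95% interval of 0.08 to 1.30 and a limma p of 0.0294 unadjusted and 0.999 adjusted, and it did not pass. The exact two-sided permutation test gave p = 0.1, the smallest that groups of 3 allow. In the authors' deposited table the Tukey p-value of this comparison was 0.00690 and its false discovery rate 0.956. Without both libraries of wildtype mouse 1, the change was 0.56.

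The log2 changes between genotypes in proximal tissue were 0.31 for Lox, 0.43 for Loxl2 and 0.24 for Loxl3, each with a limma adjusted p of 0.999. With 1 library left out at a time they ran from 0.17 to 0.48, from 0.14 to 0.72 and from 0.10 to 0.41 in that order. In the fit with no filter, the change of Loxl4 was -0.08. In distal tissue they were -0.05 for Lox, 0.32 for Loxl1, -0.00028 for Loxl2 and 0.0043 for Loxl3, each with a limma adjusted p of 1, and the 95% interval for Lox ran from -0.83 to 0.72. Loxl4 had 0.14 in the fit with no filter. The interaction was 0.37 for Loxl1, 0.43 for Loxl2 and 0.23 for Loxl3, each with a limma adjusted p of 0.9996. Limma called 0 of 4 members between genotypes in either tissue or for the interaction, where 0% of all genes were called. At an unadjusted p under 0.05, 1 of 4 members passed in proximal tissue and 0 in distal tissue or for the interaction, against 3.24%, 3.03% and 2.93% of all genes. The median of all genes in the proximal comparison was 0.11 on the log2 scale and -0.0043 under median-of-ratios scaling, where the change of Loxl1 was 0.56.

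**Figure D4:**
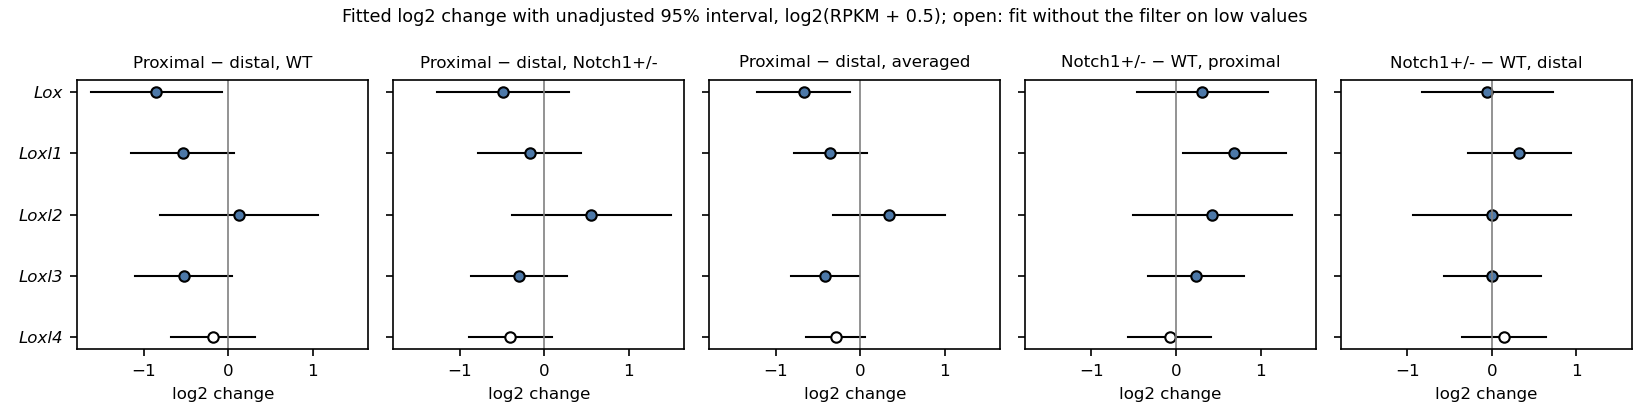
Fitted log2 change of each lysyl oxidase gene in 5 contrasts, on log2(RPKM + 0.5), with points for the estimate and lines for the unadjusted 95% interval. Filled points are from the fit of 17297 genes and open points, for Loxl4, from the fit without a filter on low values. The interval of Lox averaged over genotypes runs from -1.22 to -0.12 and that of Loxl1 between genotypes in proximal tissue from 0.08 to 1.30.

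Across the 12 libraries, the pattern of Lox was most like that of Eln, the gene of tropoelastin, its main substrate in the aortic wall. Pearson's r of log2(RPKM + 0.5) was 0.949, the highest of 17296 genes. The next were 2310022B05Rik at 0.944, Sntb1 at 0.935, Ccdc42 at 0.932 and Camk2b at 0.920. Eln ranked 2 under constant-sum scaling (r = 0.945), and with the group means removed it ranked 5 (r = 0.958). In every group the library of mouse 3, a different animal in each genotype, had both the highest Lox and the highest Eln. Removing the group means leaves such a difference by replicate number in place. Its part in the likeness of Lox and Eln was not tested. These values of r are descriptions over 12 libraries that share mice, groups and depth, and carry no test.

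Loxl1 was most like Fbn1, which encodes fibrillin-1 of the microfibrils, at r = 0.947 and again the highest of 17296 genes. Col18a1 at 0.938, Matn2 and Pdgfrb at 0.926 and Adgre5 at 0.923 followed. With the group means removed, r with Fbn1 was 0.958 and ranked 6. Loxl3 was most like Col6a1 and Clec11a, both at 0.911, then Fbxo25 and Npnt at 0.909 and Dcp1a at 0.907. Col6a1 ranked 4 under constant-sum or median-of-ratios scaling and 76 with the group means removed (r = 0.883). Loxl2 was most like Gm21451 at 0.889, Rhobtb2 at 0.882, Gm11839 at 0.868, Mast4 at 0.857 and Gm4866 at 0.856. Loxl4, at its low read counts, was most like Tmem206 at 0.946, Purg at 0.944, Thap3 at 0.923, Nptxr at 0.918 and Edem3 at 0.917. Within the family, r was 0.712 for Loxl1 with Loxl3, 0.612 for Lox with Loxl1 and -0.0222 for Lox with Loxl2.

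**Figure D5:**
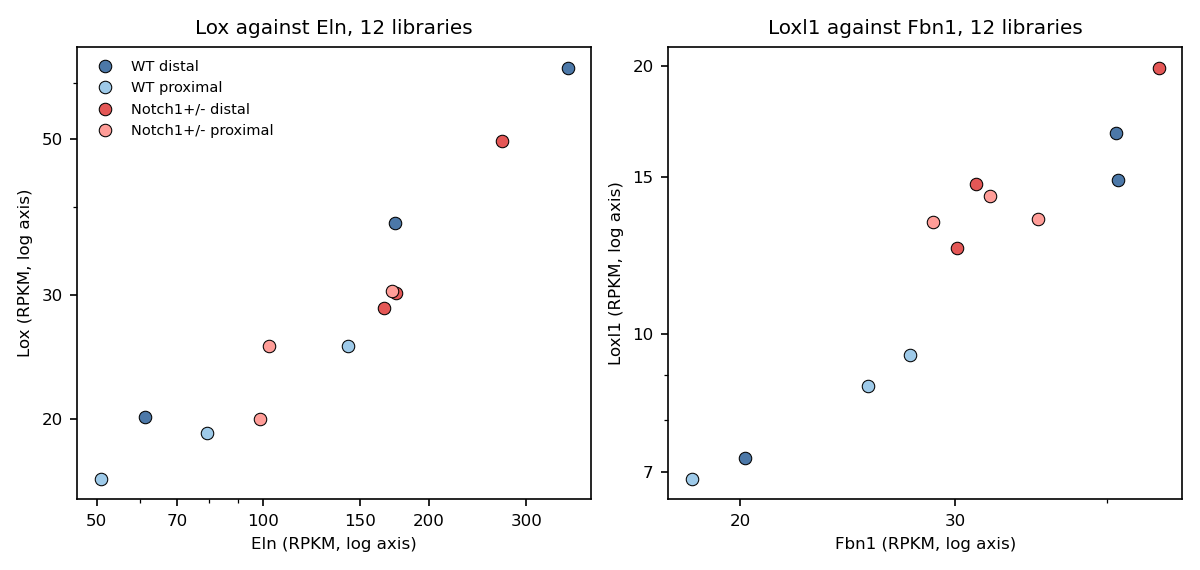
Lox against Eln, left, and Loxl1 against Fbn1, right, in RPKM on log axes. Each point is 1 of 12 libraries, coloured by group. Pearson's r on log2(RPKM + 0.5) was 0.949 on the left and 0.947 on the right.

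Eln stood at 61.3 to 356 RPKM in distal and at 50.9 to 171 in proximal libraries. Its log2 change was -0.81 (SE 0.38, limma adjusted p 0.455), and it was lower in the proximal piece of 6 of 6 mice. Lox amounted to 24.2% ± 7.84 of the Eln level in wildtype distal and 24.8% ± 7.33 in wildtype proximal libraries, and to 17.7% ± 0.554 and 20.95% ± 3.55 in those labelled Notch1+/- (SD, n = 3 each). Loxl1 amounted to 37.95% ± 3.01 and 35.5% ± 1.95 of Fbn1 in wildtype and to 44.6% ± 2.90 and 43.1% ± 4.21 in the libraries labelled Notch1+/-, distal and proximal in turn.

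Of the elastic fibre genes, 2 of 17 tested were called lower in proximal tissue and 0 higher when averaged over genotypes, by limma at an adjusted p under 0.05, beside 1.5% of all genes called. Efemp1, which encodes the fibulin-3 of elastic tissues, stood at 34.6 ± 12.5 RPKM distally and 11.7 ± 3.38 proximally (SD, n = 6 each), a log2 change of -1.49 (limma adjusted p 0.0105). Mfap5, a microfibril component, stood at 48.5 ± 10.8 against 24.6 ± 2.60 RPKM (log2 -0.94, limma adjusted p 0.00862). For both, no proximal library reached the lowest distal one. The share of all genes so separated is not given here. A gene so separated is lower in the proximal piece of all 6 mice. That weaker condition held for 5.65% of all genes, so the share so separated is at most that. The call of Efemp1 was lost without both libraries of wildtype mouse 1 (limma adjusted p 0.0518). Fbn1 had a log2 change of -0.29 (limma adjusted p 0.671). Fbln5, whose product binds elastin and Loxl1, had -0.18 (0.714), Efemp2, which brings Lox to tropoelastin, 0.11 (0.915), and fibronectin, Fn1, which aids Lox processing, -0.14 (0.821), with limma adjusted p in parentheses.

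Of the fibrillar collagens, 0 of 5 tested were called, and 0 of 6 type IV collagen genes, with 2 and 3 at an unadjusted p under 0.05. Col1a1 was at a log2 change of -0.38 (limma adjusted p 0.598) and Col3a1 at -0.35 (0.630). Among the genes for propeptide processing and matricellular partners, 1 of 8 was called lower and 1 higher. Pcolce2, an enhancer of the protease that trims procollagen, fell from 7.83 ± 1.42 RPKM distally to 4.17 ± 0.738 proximally (log2 -0.83, limma adjusted p 0.0155), a call lost without wildtype mouse 1 (0.0587) or without proximal library 2 labelled Notch1+/- (0.0550). Thbs1, a matricellular thrombospondin gene, stood at 1.36 ± 0.953 distally and 10.5 ± 4.21 proximally (log2 2.58, limma adjusted p 0.00139). Bmp1, whose protease activates the Lox precursor, had a log2 change of -0.25 (limma adjusted p 0.696).

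Of 7 genes tested for copper supply or use, 1 was called, and it was a user of copper and not a supplier. Sod3, the extracellular superoxide dismutase that also needs copper, fell from 262 ± 36.7 RPKM distally to 146 ± 13.1 proximally (log2 -0.84, limma adjusted p 0.00351). Atp7a, the pump that loads copper onto secreted enzymes, had a log2 change of 0.01 (limma adjusted p 0.992). Of 15 genes for collagen lysine and proline modification and folding, 1 was called. It was P4ha3, a prolyl hydroxylase subunit, at 1.08 ± 0.883 distally and 3.15 ± 0.715 RPKM proximally (log2 1.34, limma adjusted p 0.0403), a call lost under 13 of 25 alternative settings. In limma, 0 of 3 other crosslinking enzymes and 0 of 2 other copper amine oxidases tested were called, with 0 and 1 at an unadjusted p under 0.05. No gene of these lists was called between genotypes or for the interaction, where 0% of all genes were.

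Markers of heart muscle, cartilage and valve differed between locations. Summed cardiomyocyte markers ran from 23.4 to 327 RPKM in distal and from 247 to 1431 in proximal libraries, and 8 of 10 were called higher in proximal tissue by limma. The cartilage and valve markers ran from 2.79 to 10.1 RPKM distally and from 37.8 to 125 proximally, with 5 of 6 measured called. Col2a1 and Matn1, also among the 8 listed, were not among the deposited genes. Chad was the highest of the 6, at 67.9 ± 23.9 RPKM proximally, while Acan stood at 1.11 ± 0.395 (SD, n = 6 each). Over all genes, 1.5% were called in either direction. Of the smooth muscle markers 0 of 6 were called, with 3 fitted higher in proximal tissue and 3 lower. Of the fibroblast markers 1 of 7 was called, Pi16, at 26.9 ± 4.98 RPKM distally and 12.9 ± 2.85 proximally (SD, n = 6 each; limma adjusted p 0.0105), while 3 of 7 were fitted higher in proximal tissue. Of the endothelial markers 1 of 6 was called, Emcn, which was higher proximally. With Emcn included, 4 of the 6 were fitted higher in proximal tissue and 2 lower. Pecam1, the endothelial marker with the highest level, stood at 27.0 ± 9.18 RPKM distally and 15.5 ± 4.45 proximally (SD, n = 6 each). By limma 0 of 7 macrophage, 0 of 5 mesothelial and 0 of 4 brown fat markers tested were called, with 5, 2 and 2 at an unadjusted p under 0.05. The macrophage sum ran from 10.5 to 38.6 RPKM distally and from 30.9 to 41.0 proximally, the endothelial sum from 24.8 to 53.5 and from 20.8 to 39.7, the mesothelial sum from 14.2 to 39.6 and from 4.24 to 22.2, and the brown fat sum from 1.98 to 49.9 and from 15.7 to 65.3. The part of these differences in the levels of the family was not tested. Without the 2 distal libraries with the highest Myh6, a cardiomyocyte marker, the log2 change of Lox was -0.72 (limma adjusted p 0.425) and 0 of 4 members were called.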

How the data were processed

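RNA from 10 ng per sample was amplified with a kit that does not mark strand and sequenced as paired reads of 50 bases, per the labels' protocols. Per the submitters' processing notes, the build was mm10 and the tools included TopHat2 2.1.0, Bowtie2 and R 3.2.2, while how reads were counted is not given in the sources used here. For 21954 genes the authors deposited RPKM values. A floor of 0.158 RPKM stands in for lower values, per the file headers, and no member was at it. The authors' deposited table also holds p-values and false discovery rates of their ANOVA and Tukey comparisons and fold changes, a ratio of group means. Another 24 columns of per-sample values were not used.

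Reads per gene were worked back from the RPKM. The library size behind the RPKM was fitted at 14476722 to 20017786 reads, with total reads 1.83 to 1.85 times as high. Read counts of the members are therefore lower than total reads would give. For the members they were whole within 3.64e-12 of a read, with the lengths of Lox and Loxl1 (4810 and 3338 bases, against 4778 and 3297 in GENCODE) themselves worked back from the values. The test was limma 3.58.1 in R 4.3.3 with a variance trend on log2(RPKM + 0.5), over 17297 genes with at least 1 RPKM in at least 3 of 12 libraries, with 4 group means in 1 model. This model had no term for the mouse, so its SEs, intervals and p-values treat the 2 pieces of a mouse as independent. The replicate block among the alternatives uses the pairing for the location comparisons and the interaction. Between genotypes it joins libraries of the same replicate number, which come from different mice. The files hold RPKM, so no count test was run. The log2 scale with this pseudocount understates changes of low genes. Calls were at a two-sided Benjamini-Hochberg adjusted p under 0.05. Members have limma p-values and, named as such, p-values of exact permutation tests. Sample names in the deposited sheet give proximal and distal pieces of 1 mouse the same number, so replicate numbers pair the samples, and the deviations of a mouse's 2 libraries from their group means correlated at 0.0731 to 0.216. The members and gene lists were chosen with earlier results of these data known. The text names the 5 members, listed pathway genes that were called, 9 fixed pathway genes, and the 5 genes most alike to each member. Intervals cover the spread between libraries, and depth limited Loxl4. Alternatives were other scalings, pseudocounts, filters, fits, a replicate block and leaving out libraries.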

Additional observations from a re-analysis of the deposited data

Results flagged for a closer look

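Among the 6 proximal libraries, Loxl4 stood apart in wildtype proximal library 1, at 0.771 RPKM against 0.435 to 0.514 in the other 5. The gap to the nearest library was 0.766 of the whole range, above Dixon's 95% critical value of 0.625 for 6 samples. Chance flags about 1 in 20 such groups, and 10 groups were examined, the 5 members in each location. The library held 65 reads of Loxl4, which is the highest count of any library, shared with distal libraries 1 and 2 labelled Notch1+/-.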

How the results depend on the processing

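The counts of members called, 0 in each of the 6 comparisons, were 0 under all 26 alternative settings, or 25 for the location average and the interaction, which use all groups, and the lowest adjusted p of a member was 0.0765, for Lox between locations averaged. Of 616 alternative values for the members, 26 changed sign, all in comparisons that were not called. With the replicate block, the log2 change of Lox between locations was -0.67 (limma adjusted p 0.106), and the block called no member. Between genotypes in distal tissue, Lox was 0.0087 under median-of-ratios scaling and 0.12 without the 2 distal libraries with the highest Myh6, and Loxl2 was 0.057 under median-of-ratios scaling, 0.063 under quantile normalization, 0.0024 with a pseudocount of 0.1, 0.56 without those 2 libraries and 0.0032 in the ANOVA without moderation. In the same comparison Loxl3 was -0.11 with RPKM rescaled to a constant sum, and without both libraries of wildtype mouse 1, a setting chosen after seeing the data, Loxl1 was -0.036 and Loxl3 -0.26. The interaction of Loxl2 was -0.13 without the 2 distal libraries. Leaving out 1 library at a time gave ranges of -0.47 to 0.34 for Lox, -0.036 to 0.54 for Loxl1, -0.40 to 0.36 for Loxl2 and -0.26 to 0.19 for Loxl3 between genotypes in distal tissue, of -0.025 to 0.79 for the interaction of Lox, of -0.31 to 0.012 for Loxl1 between locations in the libraries labelled Notch1+/- and of -0.27 to 0.49 for Loxl2 between locations in wildtype. Between locations, averaged, Efemp2 was -0.051 with array weights and -0.041 to 0.25 with 1 library left out, and Atp7a was -0.016 at a constant sum, -0.058 without the 2 distal libraries, -0.047 without wildtype mouse 1 and -0.079 to 0.15 with 1 library left out. The call of Efemp1 was lost in the ANOVA (adjusted p 0.0768). The causes were not tested. Loxl4, with 32 to 65 reads, is limited by depth.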
